A study of Danio rerio with 8 samples.

Results

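The zebrafish genome holds a pair of Pax6 genes, pax6a and pax6b, and the count table has both under the identifiers ENSDARG00000045936 and ENSDARG00000103379, 2 of 32520 genes. They were taken by identifier. The symbol table used here gives both the symbol PAX6, so which is pax6a and which is pax6b was not resolved, and they are called here by the number of reads they received: ENSDARG00000045936 is the higher-count copy and ENSDARG00000103379 the lower-count copy. Read counts depend on transcript length, which was not at hand, so this naming says nothing of their levels per transcript. RNA was sequenced from corneas of adult wild-type zebrafish of the AB background. In the wounded group both corneas of each fish had been abraded with an ophthalmic burr and were collected 1.5 h later. In the control group the fish had been anesthetized and held on a sponge for as long, without abrasion. There were 4 wounded and 4 control libraries, each of 6 corneas pooled from 3 fish. Libraries with the same number came from fish of 1 tank and 1 age, 180 days in tank 1, 145 days in tank 2, 148 days in tank 3 and 183 days in tank 4.

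Pax6 encodes a transcription factor with a paired domain and a homeodomain. It stands high in the gene network that forms the eye, and in mammals it is needed for the identity of the corneal epithelium, where losing a single gene copy leads to a corneal disease in aniridia. It is also used in lens, retinal neurons, brain and the hormone cells of the pancreatic islet. Teleost fish kept a pair of copies after a genome duplication, and such copies often divide the expression sites of the ancestral gene between them.

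Library totals lay between 39472162 and 44250662 counts. The authors left wounded library 1 out of their comparison after looking at a principal component plot. The comparison here has wounded libraries 2 to 4 against control libraries 1 to 4 unless all 8 are named. Principal components of the 500 most variable genes were also taken here. Wounded library 1 lay at 10.7 and 5.30 on the first and second component. Wounded libraries 2 to 4 spanned 8.16 to 13.1 and -9.63 to 12.1. On the second component the libraries of tanks 1 and 4, the older fish, were positive and those of tanks 2 and 3 negative. Wounded library 1 lay within both spans, but with so wide a span on the second component this says little of whether it stood apart. In wounded library 1 the summed level of 15 corneal epithelium markers was 73206 CPM (TMM-scaled counts relative to library size, as a rate for a library of 1e6 counts), 63.7% of the control mean, against 106419 to 108331 CPM in the other wounded libraries and 113587 to 117822 CPM in control libraries. Its 37 retina neuron markers and 14 pigment cell markers summed to 524 and 102 CPM, against 249 to 388 and 47.5 to 83.5 CPM in the other wounded libraries and 261 to 453 and 36.6 to 76.2 CPM in control libraries. Its 12 keratocyte markers, of the corneal stroma, summed to 14105 CPM, against 18734 to 27650 CPM in the other wounded libraries and 18368 to 24703 CPM in control libraries. The keratin genes krt5 and krt91, which make filaments of epithelial cells, led the epithelial markers in every group. A ranking within a chosen list cannot tell cornea from other epithelia, so the tissue is taken from the labels. Not every marker followed its sum in wounded library 1. There krt5 and the keratocyte marker col1a1a had 22659 and 2199 CPM, below all control libraries. The epithelial marker epcam and the keratocyte marker LUM had 3855 and 283 CPM, above all control libraries. Of the 23 lens genes, 5 had no count in any library, and the list summed to 5.70 ± 0.65 CPM in wounded libraries 2 to 4 and 3.84 ± 0.86 CPM in control libraries (SD, n = 3 and n = 4).

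Both Pax6 copies fell in wounded corneas at 1.5 h. The higher-count copy had 144, 86.2 and 115 CPM in wounded libraries 2, 3 and 4, against 229, 289, 315 and 287 CPM in control libraries 1 to 4. All 3 wounded libraries lay below all 4 control libraries. The lower-count copy had 34.8, 20.3 and 34.7 CPM in wounded libraries 2, 3 and 4, against 91.1, 89.4, 99.97 and 72.2 CPM in control libraries 1 to 4, and again the groups did not overlap. Of all 18935 genes with enough counts to be tested, 9.12% had the 3 wounded libraries below all control libraries.

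**Figure D1:**
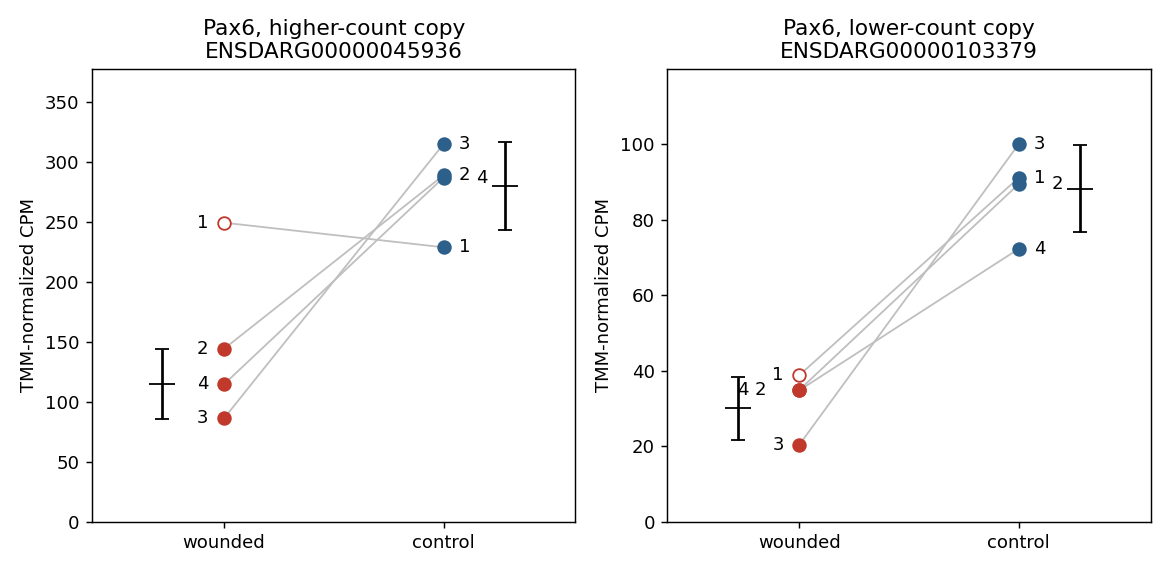
TMM-normalized CPM (y axis, from 0) of the higher-count Pax6 copy (left) and the lower-count copy (right) in wounded and control libraries. Points are libraries with their numbers, grey lines join libraries of 1 tank, the open point is wounded library 1, and the black bars are the mean ± SD of wounded libraries 2 to 4 and of control libraries 1 to 4. In the lower-count copy all 4 wounded libraries sit below all control libraries, whereas in the higher-count copy wounded library 1, at 250 CPM, sits among them.

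The higher-count copy averaged 115 ± 29.0 CPM in wounded corneas (SD, n = 3) and 280.2 ± 36.4 CPM in control corneas (SD, n = 4), so that 41.0% of the control level was left. On the log2 scale this was a change of -1.29 with a standard error of 0.18, which passed the quasi-likelihood test of edgeR (adjusted p = 0.0147, with Benjamini-Hochberg adjustment over all 18935 genes). The lower-count copy averaged 29.97 ± 8.36 CPM in wounded corneas (SD, n = 3) and 88.2 ± 11.6 CPM in control corneas (SD, n = 4), with 34.0% left. Its change on that scale was -1.56 with a standard error of 0.21, and it passed as well (edgeR, adjusted p = 0.0109). Summed over both copies, Pax6 stood at 145 ± 36.5 CPM in wounded corneas (SD, n = 3) and 368 ± 39.6 CPM in control corneas (SD, n = 4). In the same test 120 genes, or 0.634% of those tested, were lower in wounded corneas, and 475 genes, or 2.51%, with the tank as a block. Among those 120 the lower-count copy had the 15th largest fall and the higher-count copy the 28th. By the mean of the control libraries the higher-count copy ranked 506th and the lower-count copy 1639th of the 18935 genes in CPM, which is not corrected for length.

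In pooled tissue a smaller number of cells of a type and less RNA per cell cannot be told apart. By the paper, the burr took away epithelium of the central cornea. The paper also reported pax6a as lower from these samples and measured it by qPCR. Its staining of Pax6 protein at 1.5 h, after unilateral abrasion, was strong around the wound and absent elsewhere in the corneal epithelium. CPM is relative to library size, so a marker sum led by krt5 and krt91 cannot show the loss of a region. The 15 corneal epithelium markers summed to 107148 ± 1034 CPM in wounded libraries 2 to 4 and 114878 ± 1975 CPM in control libraries (SD, n = 3 and n = 4), lower by 6.73%, where summed Pax6 was lower by 60.6%. None of the 15 was called in either direction (edgeR and DESeq2), although 4 had an unadjusted p under 0.05 in edgeR. These 4 went both ways: krt8 (log2 change 0.39) and epcam (0.25) were higher, and krt97 (-0.31) and PPL (-0.34) lower. Of all 18935 genes tested, 3505 had an unadjusted p under 0.05 in that fit. The 37 retina neuron markers, from a tissue in which Pax6 is also used, summed to 307 ± 72.2 CPM in wounded libraries 2 to 4 and 339 ± 84.8 CPM in control libraries (SD, n = 3 and n = 4), and these ranges overlapped. Of the 29 retina markers tested, 1 was called, TFAP2B, which fell and is not particular to retina. Of all genes, 0.634% were called lower and 0.734% higher in edgeR (5% and 4.3% in DESeq2). With shares so small, the counts of calls among the 15 and the 29 say little about these markers. Whether the shifts of the markers take part in the fall of Pax6 was not tested.

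The 2 calls differed in the fits without 1 library. That of the lower-count copy held in each of the 7 fits without 1 library, at adjusted p = 0.00681 to 0.0499 in edgeR. That of the higher-count copy was lost in 3 of them, at adjusted p = 0.0712 with wounded library 3 left out, 0.0527 with wounded library 4 left out and 0.0665 with control library 3 left out (edgeR, range over the 7 fits 0.0149 to 0.0712). In these 3 fits only 7, 16 and 10 of all genes were called lower, against 120 in the main fit. The loss of the call was thus not particular to this copy. Its log2 change there was -1.11, -1.29 and -1.23.

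Wounded library 1 separated the copies. There the higher-count copy had 250 CPM, inside the range of the control libraries (229 to 315 CPM), and the lower-count copy had 38.7 CPM, below the lowest control library (72.2 CPM). With all 8 libraries the higher-count copy changed by -0.91 on the log2 scale, with a standard error of 0.27, and its call was lost, at an adjusted p of 0.105 in edgeR and of 0.0605 with the tank as a block. The lower-count copy changed by -1.45, with a standard error of 0.20, and its call held (edgeR, adjusted p = 0.00692, and 0.00739 with the block), while 0.468% of the 18602 genes then tested were called lower. The 4 wounded libraries lay below all 4 control libraries in the lower-count copy and in 5.85% of all genes.

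How far wounded library 1 moved was also set beside the other genes that were called lower without it, a description chosen after the values had been seen. On the log2 scale it had 74.0% of the mean change of wounded libraries 2 to 4 in the lower-count copy and 12.0% in the higher-count copy. For the other 118 genes called lower the median was 69.2% (quartiles 38.0% and 93.2%), and 14 of them, or 11.9%, had no more than the higher-count copy. In 12 of the 118, or 10.2%, wounded library 1 lay inside the range of the control libraries, as it did for the higher-count copy. This is also the library with the low epithelial and keratocyte and the high retina and pigment marker sums given above, which not every marker followed. The part of these sums in the difference between the copies was not tested.

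The share of each copy in all Pax6 counts does not depend on library size. The lower-count copy took 13.4%, 19.5%, 19.1% and 23.3% of Pax6 counts in wounded libraries 1 to 4, against 28.4%, 23.6%, 24.1% and 20.1% in control libraries 1 to 4. With 4173 to 16718 Pax6 counts per library the 95% Wilson intervals were narrow, from 12.8% to 14.1% in wounded library 1 and from 27.7% to 29.2% in control library 1. They cover counting error only, and reads made by PCR are not independent molecules. Wounded library 1 had the lowest share and control library 1, of the same tank, the highest, and wounded library 4 had a larger share than control library 4.

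**Figure D2:**
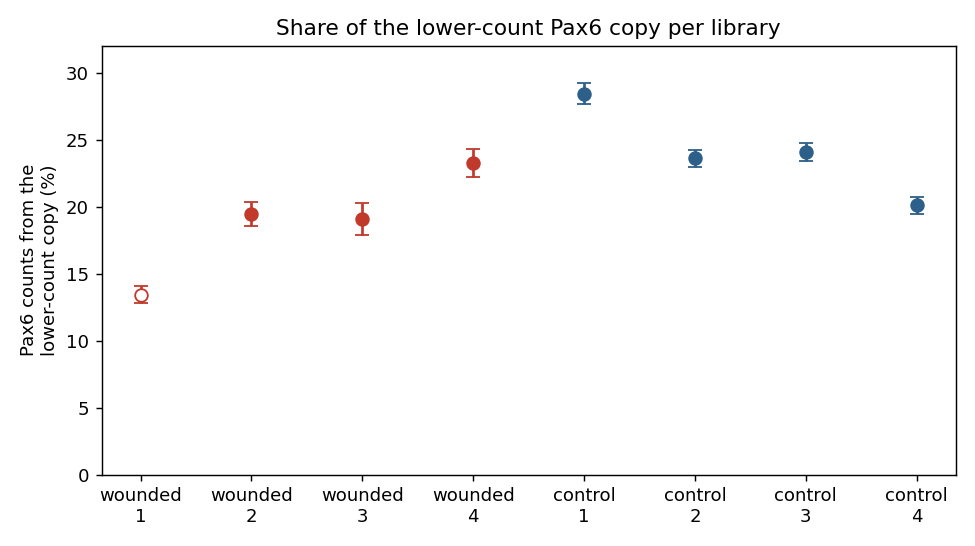
Percent of all Pax6 counts that belong to the lower-count copy (y axis, from 0) in each library, wounded libraries in red and control libraries in blue, with 95% Wilson intervals. The open point is wounded library 1, the lowest at 13.4%; the other 3 wounded libraries, at 19.1% to 23.3%, overlap the control libraries, at 20.1% to 28.4%.

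Expressed as log2 of the lower-count over the higher-count copy, the ratio averaged -1.95 ± 0.20 in wounded libraries 2 to 4 (SD, n = 3) and -1.67 ± 0.27 in control libraries (SD, n = 4). The difference of -0.28 did not pass an exact permutation test over libraries (two-sided p = 0.114, where the smallest p this design allows is 0.0571), so that a difference between the falls of the copies was not shown. With all 8 libraries the difference was -0.47 (exact permutation test, two-sided p = 0.0571, smallest possible 0.0286). These tests do not use the tanks. Within tanks 1 to 4 the difference was -1.36, -0.36, -0.43 and 0.27. Over these 4 pairs it did not pass (exact sign-flip test, two-sided p = 0.25, smallest possible 0.125). Tanks 2 to 4 averaged -0.17 (exact sign-flip test, p = 0.5, smallest possible 0.25). In the unpaired comparison with wounded libraries 2 to 4, the difference was -0.17 without control library 1 and -0.40 without wounded library 4. Reads that match both copies equally well may have been dropped or shared between them, and how the counting treated them is not given in the sources used here.

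Within tanks, where wounded and control fish had the same age, the lower-count copy was lower in 4 of 4 wounded libraries and the higher-count copy in 3 of 4. In tank 1, at 180 days, the higher-count copy stood at 250 CPM in the wounded and 229 CPM in the control library, a log2 change of 0.12, and the lower-count copy at 38.7 CPM in the wounded and 91.1 CPM in the control library, a change of -1.23. In tank 2, at 145 days, the changes were -1.004 and -1.36 for the higher-count and the lower-count copy. In tank 3, at 148 days, they were -1.87 and -2.30, which for each copy was the strongest change of the 4 tanks. In tank 4, at 183 days, they were -1.33 and -1.06, and this was the tank in which the higher-count copy changed more than the lower-count copy. Over the 4 tanks the change averaged -1.02 ± 0.84 for the higher-count copy and -1.49 ± 0.56 for the lower-count copy on the log2 scale (SD, n = 4 each). A sign-flip test over 4 pairs cannot give a p below 0.125, so none is given for these changes.

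**Figure D3:**
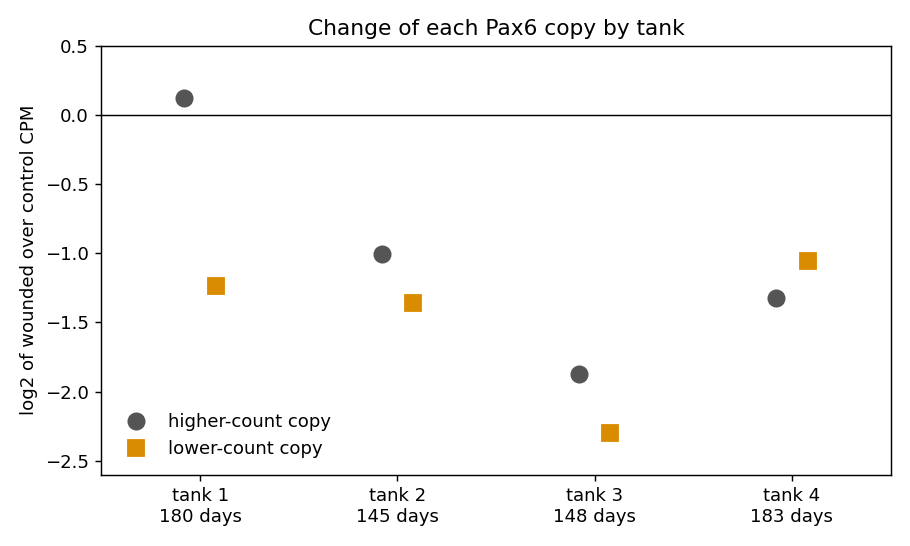
Log2 of wounded over control CPM (y axis) within each tank (x axis, with the age of its fish), circles for the higher-count copy and squares for the lower-count copy. The lower-count copy lies below 0 in all 4 tanks, from -2.30 to -1.06, and the higher-count copy from -1.87 in tank 3 to 0.12 in tank 1.

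The changes did not follow age in a way that could be shown. The tanks of 180 and 183 days had smaller fitted falls than those of 145 and 148 days, by 0.88 on the log2 scale for the higher-count copy (standard error 0.49) and 0.62 for the lower-count copy (standard error 0.38), over all 8 libraries. Over the fits without 1 library it was 0.22 (without wounded library 1) to 1.34 (without wounded library 4, unadjusted p = 0.00651) for the higher-count copy and 0.29 (without wounded library 3) to 1.07 (without wounded library 2, unadjusted p = 0.0170) for the lower-count copy, with none past the threshold after adjustment (edgeR). Neither passed (edgeR, adjusted p = 0.9997 for each, unadjusted p = 0.103 and 0.127). In the same test 0 of 18602 genes, or 0%, passed after adjustment and 339 had an unadjusted p under 0.05, and with the tank as a block 0 passed and 584 had an unadjusted p under 0.05. Among the control libraries, the pair of 180 and 183 days held both the highest (28.4%) and the lowest (20.1%) share of the lower-count copy.

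Across the 8 libraries the copies followed each other with a Pearson r of 0.88 and a Spearman rho of 0.86 on log2 CPM (n = 8). These values are a description with no p, since they also hold the difference between the conditions, and 4 libraries are too few to test the relation within a condition. For the deviations from the condition means it was 0.70. Without wounded libraries 3 and 4, the farthest from the median of the higher-count copy, r was 0.73 over 6 libraries, and without wounded library 1 it was 0.96 over 7. The other copy was not the nearest pattern to either: among 14585 named genes with at least 1 CPM on average, the lower-count copy ranked 169th by its r with the higher-count copy, and the higher-count copy 253rd by its r with the lower-count copy.

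The genes nearest to a copy were sought by Pearson r of log2 CPM over the 8 libraries. As the highest and lowest of 14585 values they are a description and carry no p. They were picked over these same libraries, so that the likeness of single libraries in them follows from the choice. An r of 0.9 or more was reached with the lower-count copy by 168 genes, or 1.15%, and one of -0.9 or less by 174 genes, or 1.19%. With the higher-count copy these were 120 genes, or 0.823%, and 49 genes, or 0.336%.

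The 5 genes most like the lower-count copy were znf770, a zinc finger gene (r = 0.99, rho = 1), the homeobox gene hmx4 (r = 0.98, rho = 0.90), TFAP2A, an AP-2 transcription factor gene needed for eye development (r = 0.98, rho = 1), RNF41, a ubiquitin ligase gene (r = 0.98, rho = 0.83), and the KCTD6 gene ENSDARG00000023703 (r = 0.98, rho = 0.86). For the deviations from the condition means their r was 0.96, 0.87, 0.84, 0.81 and 0.81. Of TFAP2A there were 65.8, 55.3, 45.2 and 51.4 CPM in wounded libraries 1 to 4, against 134, 131, 161 and 118 CPM in control libraries 1 to 4. The libraries had the same order in TFAP2A and in the lower-count copy, also within each condition.

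Among the genes that ran most against the lower-count copy were the THBS1 gene ENSDARG00000103775, which encodes the matrix glycoprotein thrombospondin 1 (r = -0.99, rho = -0.98), and otud1, a deubiquitinase gene (r = -0.99, rho = -0.86). THBS1 had 689, 661, 976 and 705 CPM in wounded libraries 1 to 4, against 432, 455, 379 and 475 CPM in control libraries 1 to 4. Wounded library 3, the lowest in the lower-count copy, was the highest in THBS1. For the deviations from the condition means r was -0.94 for THBS1 and -0.92 for otud1. THBS1 passed the edgeR test with a rise of 0.84 on the log2 scale, its standard error being 0.15 (adjusted p = 0.0329). The call was lost with wounded library 3, wounded library 4, control library 1 or control library 3 left out (edgeR, adjusted p = 0.138, 0.0598, 0.0940 and 0.105).

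**Figure D4:**
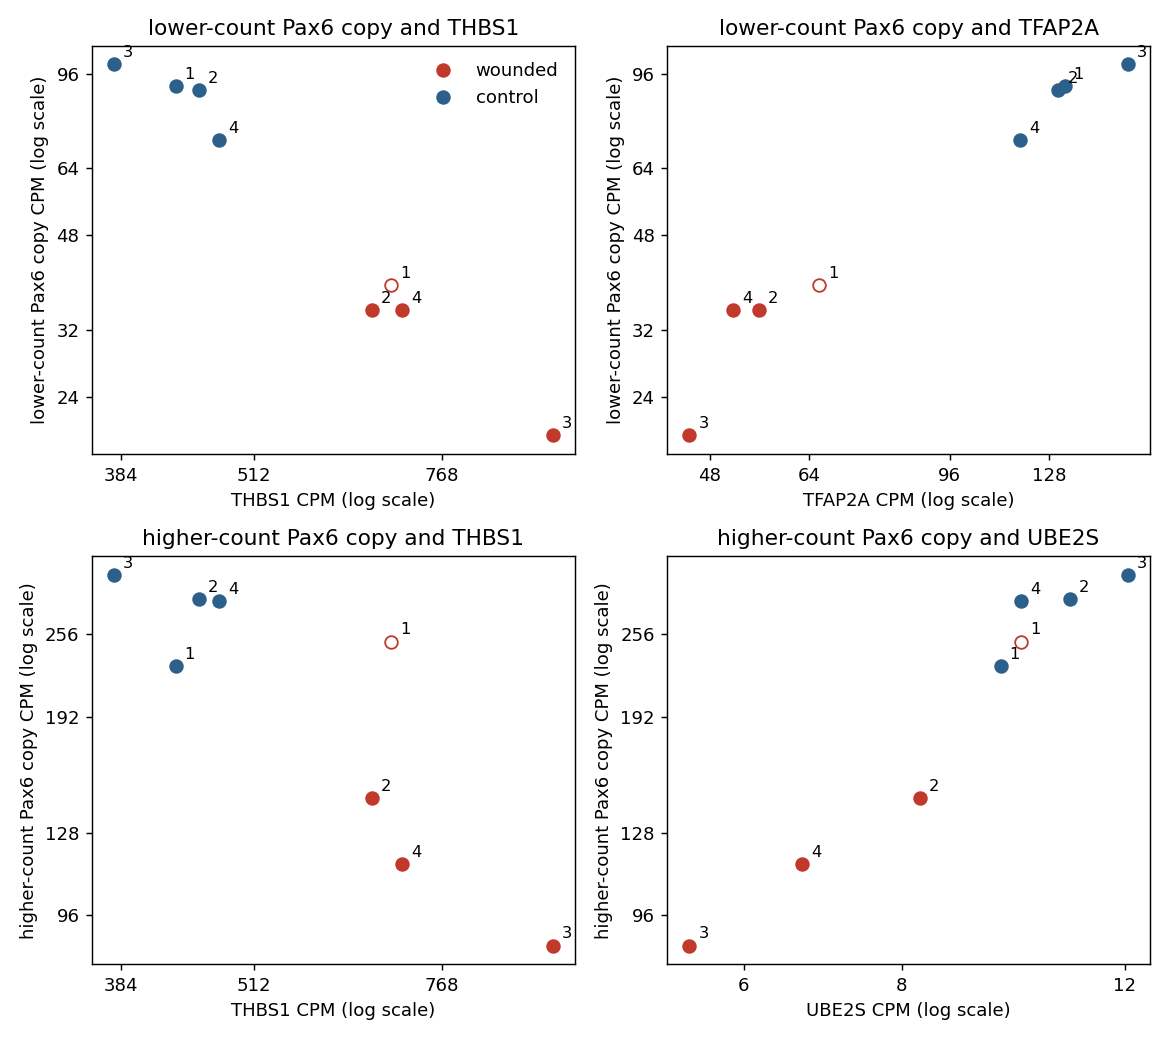
CPM of a Pax6 copy (y axis, log scale) against CPM of another gene (x axis, log scale) in the 8 libraries, wounded in red and control in blue, with library numbers and wounded library 1 as an open point. THBS1 and TFAP2A were picked for their r with the lower-count copy over these libraries, and UBE2S for its r with the higher-count copy. By this choice the lower-count copy (top) falls on 1 line with THBS1 (r = -0.99) and TFAP2A (r = 0.98). The higher-count copy (bottom) leaves the THBS1 line in wounded library 1 (r = -0.87) but not the UBE2S line (r = 0.98), so the panels are no test of a contrast between the copies.

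The higher-count copy had other genes at the top, though their likeness was not particular to it. Its 5 nearest genes were ENSDARG00000098681 (r = 0.98), UBE2S, a ubiquitin-conjugating enzyme gene (r = 0.98, rho = 1), ABRAXAS2, which encodes a subunit of a deubiquitinase complex (r = 0.98), EDC3, an mRNA decapping gene (r = 0.98), and the ubiquitin ligase gene rnf167 (r = 0.97, rho = 1). UBE2S had 9.94, 8.27, 5.44 and 6.67 CPM in wounded libraries 1 to 4, against 9.58, 10.9, 12.1 and 9.95 CPM in control libraries 1 to 4. As in the higher-count copy, wounded library 1 lay inside the range of the control libraries, which follows from picking UBE2S by its r over all 8 libraries. Of the 5 genes ABRAXAS2 passed the edgeR test, with a log2 change of -1.11 (adjusted p = 0.0320), but with all 8 libraries, over which the likeness was taken, its change was -0.74 and the call was lost (adjusted p = 0.182). Its call was also lost with wounded library 3, wounded library 4, control library 1 or control library 3 left out (edgeR, adjusted p = 0.145, 0.0924, 0.0692 and 0.105). With the tank as a block ENSDARG00000098681 (log2 change -0.71) and rnf167 (-0.74) passed as well (edgeR, adjusted p = 0.0288 and 0.0378). Those that ran most against the higher-count copy were the ARHGAP45 gene ENSDARG00000062049 (r = -0.98), the G protein-coupled receptor kinase gene GRK3 (r = -0.97) and PHOSPHO1 (r = -0.97). None of these passed (edgeR, adjusted p = 0.0674 to 0.186), although GRK3 did with the tank as a block (log2 change 0.89, edgeR adjusted p = 0.0403). With THBS1 the higher-count copy had an r of -0.87, and with TFAP2A one of 0.88. The 5 genes nearest to the higher-count copy had an r of 0.83 to 0.88 with the lower-count copy. The 5 nearest to the lower-count copy had an r of 0.82 to 0.91 with the higher-count copy. ARHGAP45 ran against the lower-count copy as well (r = -0.92).

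No other gene of the PAX family was called, but only 3 others could be tested. Of all genes, 0.634% were called lower and 0.734% higher in edgeR, so no call among 3 says little. The family has 15 genes in the table. Besides Pax6 only the PAX3 gene ENSDARG00000010192 and both PAX7 genes had enough counts to be tested, and the other 10 had 0 to 25 counts over all 8 libraries together. In fish PAX3 and PAX7 genes act in the neural crest and its pigment cells. PAX3 ENSDARG00000010192 had 0.464 ± 0.228 CPM in wounded corneas (SD, n = 3) and 0.947 ± 0.314 CPM in control corneas (SD, n = 4). Its log2 change of -1.03 missed the threshold (edgeR, adjusted p = 0.328). The PAX7 genes ENSDARG00000070818 and ENSDARG00000100398 stood at -0.11 and 0.18 on the log2 scale (edgeR, adjusted p = 0.874 and 0.797). None of the 3 had an unadjusted p under 0.05 in edgeR, and none was called by DESeq2, which gave 2 of them an adjusted p.

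Several regulator genes that act beside Pax6 in the eye, not all of them transcription factors, were lower in the same corneas. Of 35 such genes tested, Pax6 itself not counted, 7 fell and none rose in edgeR (20.0% lower, against 0.634% of all genes). An unadjusted p under 0.05 was reached by 12 of the 35, and by 3505 of all 18935 genes. The median log2 fold change of the 35 was -0.19, against 0.01 over all genes, and 23 of the 35 were negative. With the tank as a block 2 rose (2.71% of all genes did) and with DESeq2 3 rose (4.3% of all genes), foxc1b among them in each. The list was written with results of these data known and holds genes that the study named from these samples, so it is not independent evidence. The 7 genes were hmx1 (log2 fold change -3.60), hmx4 (-2.87), MAB21L1 (-2.26), the SIX3 gene ENSDARG00000058008 (-2.03), otx2a (-1.79), TFAP2A (-1.43) and SOX2 (-0.81), with adjusted p = 9.4e-04 to 0.0452 in edgeR. SIX3 and OTX2 factors pattern the anterior neural plate and the eye field, and SOX2 acts with Pax6 on lens genes. SOX2, the smallest of these falls, had 13.6 ± 2.23 CPM in wounded corneas (SD, n = 3) and 23.7 ± 2.65 CPM in control corneas (SD, n = 4). The count of genes that fell was 3 without wounded library 3, 4 without control library 1 or control library 3, and up to 8 in the other fits without 1 library. Of the 7, hmx1, hmx4 and TFAP2A kept their call in each of these fits.

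An unadjusted p under 0.05 in edgeR was reached by 9 of 19 genes of the corneal epithelial programme, and by 3505 of all 18935 genes. The median log2 fold change of the 19 was -0.26. Of the 19, 3 fell and none rose in edgeR (15.8% lower, against 0.634% of all genes). They were the WNT7A gene ENSDARG00000044827, whose mammalian ortholog acts upstream of PAX6 in corneal epithelial cells (-1.85, standard error 0.27, adjusted p = 0.0152), and the Grainyhead factor genes GRHL1 (-0.79, standard error 0.13, adjusted p = 0.0281) and grhl2a (-0.76, standard error 0.15, adjusted p = 0.0411). With all 8 libraries only the WNT7A gene fell and 1 gene rose (in that fit 0.468% of all genes fell and 0.79% rose). MMP9, a matrix protease gene whose promoter Pax6 binds in mammals, rose with the tank as a block (by 0.57 on the log2 scale, edgeR adjusted p = 0.0336) and had an edgeR adjusted p of 0.0554 without it. The count of genes that fell was 0 without wounded library 3, wounded library 4 or control library 3, 1 without control library 1, and up to 4 in the other fits without 1 library. This list too was written with results of these data known, so it is not independent evidence.

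Lens genes, whose crystallins are known targets of Pax6, had few counts. Of 23, 5 had enough counts to be tested and none was called (edgeR, 0 at an unadjusted p under 0.05). DESeq2 gave 1 of them an adjusted p, also not called. With 0.634% of all genes called lower and 0.734% higher in edgeR, no call among 5 says little. CRYBB3, the most abundant, had 3.07 ± 1.36 CPM in wounded corneas (SD, n = 3) and 1.90 ± 0.44 CPM in control corneas (SD, n = 4), and its difference of 0.68 on the log2 scale did not pass (edgeR, adjusted p = 0.346). The next, the CRYAB gene ENSDARG00000101380, had 1.04 and 1.17 CPM in wounded libraries 1 and 4, against 0.995 and 1.32 CPM in control libraries 1 and 4, and no count in libraries 2 and 3 of either group. It was thus seen in both conditions in the tanks of 180 and 183 days, and its fitted fold change (-0.57, standard error 1.65, edgeR adjusted p = 0.893) says little. The sum of the 23 lens genes given above was 4.95 CPM or more in wounded libraries 2 to 4 and 4.89 CPM or less in control libraries, and 4.79 CPM in wounded library 1, inside the control range.

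Of the islet hormone genes, gcga, which encodes proglucagon and whose mammalian ortholog is activated by PAX6 in alpha cells, rose while Pax6 fell. It had 35.6, 30.2, 65.9 and 19.5 CPM in wounded libraries 1 to 4, against 5.65, 6.54, 5.22 and 10.8 CPM in control libraries 1 to 4. Wounded library 3 was the highest. The means were 38.5 ± 24.3 CPM in wounded libraries 2 to 4 (SD, n = 3) and 7.05 ± 2.56 CPM in control libraries (SD, n = 4). The rise was 2.44 on the log2 scale and passed the edgeR test (adjusted p = 0.0229). It was 1 of 5 genes of that list with enough counts, where 0.734% of all genes rose. That list was also written with results of these data known. The insulin genes ins and insb had 5 and 13 counts over all 8 libraries, and pax4 and RFX6, regulators of islet cells, had none. The call of gcga was lost in the edgeR fits without control library 1, without control library 3 or without wounded library 3. The other members tested were both INSM1 genes, NEUROD1 and PCSK2, and none of these was called in edgeR. INSM1 ENSDARG00000053301 stood at 0.55 on the log2 scale (edgeR, adjusted p = 0.102), which DESeq2 called (adjusted p = 0.0382).

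Few of the genes next to the Pax6 copies on their chromosomes could be tested, and none was called. In the order of the RefSeq annotation of the assembly GRCz12tu, which is not the build of the files and was used only for the order of genes, the 5 genes on either side of pax6a and of pax6b were taken. Of these 20, 9 could be matched by name and 7 had enough counts. They were mpped2 and DNAJC24 near pax6a, and mctp2b, RCN1, ELP4, IMMP1L and btr04 near pax6b. In mammals introns of ELP4 hold enhancers of PAX6. None of the 7 was called in edgeR or in DESeq2, which gave 6 of them an adjusted p, and none had an unadjusted p under 0.05 in either. Of all genes, 0.634% were called lower and 0.734% higher in edgeR (5% and 4.3% in DESeq2). With so small a share, no call among 7 genes says little about these neighbours. ELP4 averaged 5.83 CPM in wounded and 5.27 CPM in control corneas, a difference of 0.14 on the log2 scale (standard error 0.23, edgeR adjusted p = 0.797). For RCN1 it was -0.04 (standard error 0.18), and for mpped2 0.08 (standard error 0.20). The largest, btr04, was -0.62 with a standard error of 0.40. The levels of these genes were 1.05 to 13.0 CPM in wounded and 1.46 to 13.3 CPM in control corneas, far fewer counts than Pax6 had.

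**Figure D5:**
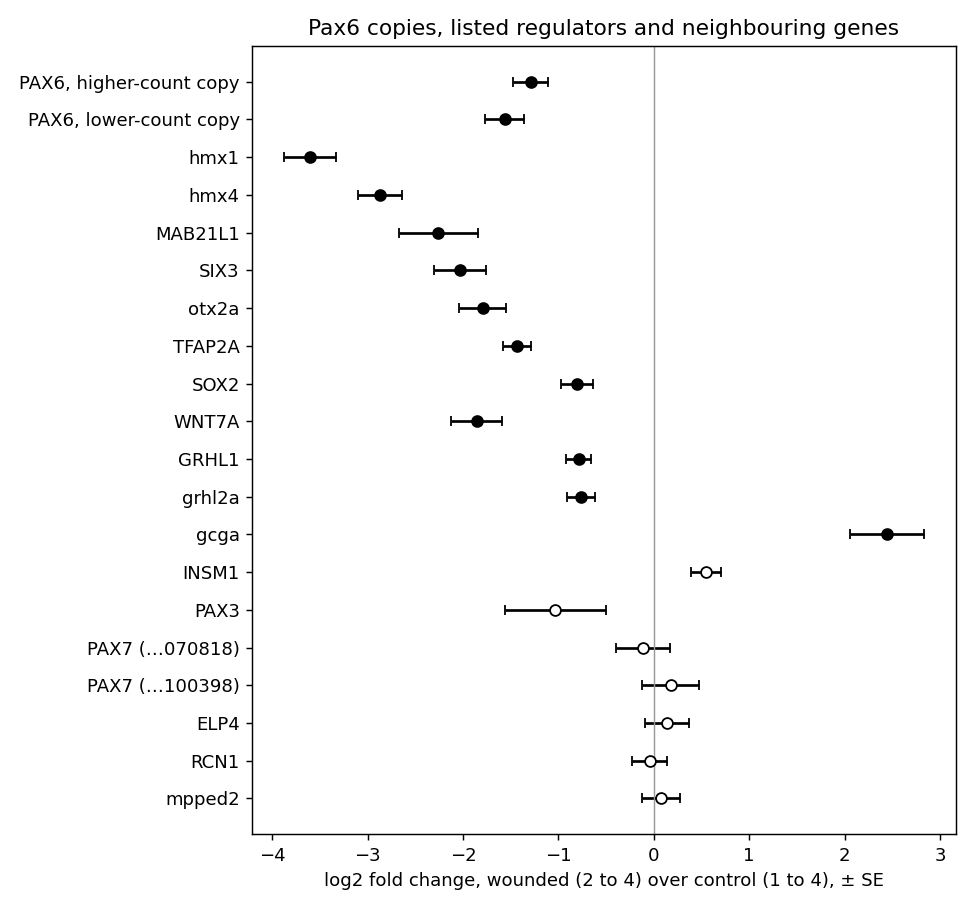
Log2 fold change of wounded libraries 2 to 4 over control libraries 1 to 4 (x axis) with its standard error, from edgeR, for both Pax6 copies, eye and epithelial regulators, islet genes, the other PAX genes tested and 3 neighbouring genes. Filled points passed an adjusted p of 0.05. The Pax6 copies, at -1.29 and -1.56, lie between SOX2 at -0.81 and hmx1 at -3.60, and the neighbours ELP4, RCN1 and mpped2 lie at 0.14, -0.04 and 0.08.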

How the data were processed

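Gene expression was measured in 8 cornea libraries, 4 wounded and 4 control, and samples were grouped by their labelled treatment. The authors sequenced directional mRNA libraries as single-end reads, aligned them to GRCz11 (STAR 2.6.0c) and used featureCounts with the Ensembl 97 gene models. The deposited values are raw counts for 32520 genes, with no normalization. The submitters' processing notes also name bcl2fastq and Trimmomatic. Whether featureCounts used strand is not given in the sources used here. The p-values measure the spread between pools of 3 fish.

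The main test was that of edgeR 4.0.16 in R 4.3.3 (filterByExpr, TMM, quasi-likelihood test with Benjamini-Hochberg adjustment over all genes, threshold 0.05) and, as an alternative, DESeq2 1.42.0. The standard error is the log2 fold change over the root of F. Likeness used log2 CPM with a prior count of 2. Permutation tests used scipy 1.17.1 and plots matplotlib 3.10.9. The fit was tested on simulated data. Alternatives were other scalings and filters, all 8 libraries, age class as a covariate, the tank as a block, and leaving out each library. Same-numbered libraries shared a tank and an age by the study's methods, and the correlation of their deviations from the group means was 0.158 in tank 1, 0.238 in tank 2, 0.215 in tank 3 and 0.293 in tank 4, so the numbers pair them.

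The members and gene lists were chosen with earlier results of these data known. Of 211 list symbols, 197 were matched by symbol, through the name without its final a or b where the table has a human-style symbol. The text names both Pax6 copies, every tested PAX gene, up to 8 called members of each list (or its 2 most abundant), the 5 most and 3 least alike genes of each copy and the neighbouring genes, except 1 gene that is not reported here. A few others, named for a count, were chosen after their values were seen. No sequences are given, as none was at hand.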

Additional observations from a re-analysis of the deposited data

Results flagged for a closer look

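Of the 82 sets of 4 libraries examined, the wounded and the control libraries of each named gene and of the Pax6 sum and ratio, 1 held a library far from the others, where chance gives about 5% of sets. For the THBS1 gene ENSDARG00000103775, which ran against the lower-count Pax6 copy, wounded library 3 had 976 CPM and the other wounded libraries 661, 689 and 705 CPM. Wounded library 3 is also the library with the lowest CPM of each Pax6 copy. As THBS1 was picked for its r with the lower-count copy over these libraries, this follows from the choice.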

How the results depend on the processing

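The lower-count copy kept its direction and its call in every fit run, and its log2 fold change was -1.69 to -1.34 without 1 library. The higher-count copy kept its direction in every fit, but its call was lost with all 8 libraries (-0.91) and with those and the tank as a block (-1.03). Without 1 library its log2 fold change was -1.49 to -1.11, with the call lost in 3 of 7 fits. With the block and 7 libraries it was -1.41 (edgeR, adjusted p = 0.00406) and that of the lower-count copy -1.57 (adjusted p = 0.00658). Among the other named genes the block over 7 libraries changed the call of ENSDARG00000098681, rnf167 and GRK3, which it called, and it called list members such as foxc1b and MMP9.

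Of all genes, 139 rose and 120 fell. These counts were 610 and 709 with DESeq2, 276 and 204 with every gene that had a count, 514 and 475 with the block, 456 and 349 with the block and all 8 libraries, 10 to 264 and 7 to 192 without 1 library, and 193 fell with age class as a covariate. Of the eye regulators, 0 rose and 7 fell in the main test. With DESeq2 3 rose, with every gene counted or with at least 10 counts in every library 1 rose. With the block over 7 or 8 libraries 2 rose. Without 1 library 0 to 1 rose and 3 to 8 fell. Of the corneal epithelial programme (0 rose), 1 gene rose with DESeq2, either filter, all 8 libraries or the block. Of the same list 3 fell, against 7 with DESeq2, 5 with every gene counted, 1 with all 8 libraries, 6 with the block, 5 with the block and all 8 libraries and 0 to 4 without 1 library. Of the islet genes, 2 rose with DESeq2 and 0 to 1 without 1 library.

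Small values changed sign without 1 library: the PAX7 gene ENSDARG00000070818 lay between -0.35 and 0.063, the CRYAB gene ENSDARG00000101380 between -7.59 and 0.011, RCN1 between -0.19 and 0.11 (0.0015 with the block) and ELP4 between -0.11 and 0.29. None of these was called. The other 33 named genes kept their direction in every fit. Over the 37 named genes other than Pax6 and 547 alternative fits, 56 lost a call and 11 gained one. The cause of these differences was not tested. Of the PAX genes 10, and of the 23 lens genes all but 5, had too few counts to be tested.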
